A study of Homo sapiens with 24 samples.

Results

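m6A peaks on the transcripts of the clustered protocadherins were described in 6 human cell populations. The members were the peaks whose gene field named a protein-coding GENCODE gene with a symbol starting in PCDHA, PCDHB or PCDHG. There were 558 such peaks among the 228472 peaks of 6 lists, on 53 genes of chromosome 5. In m6A-seq an antibody to N6-methyladenosine pulls down fragmented RNA (IP), and the method compares the reads with those of the RNA before precipitation (input). All cells came from MEL1, an established human embryonic stem cell line, used here as the INS GFP/W line, in which the insulin locus carries a GFP reporter. The stages were undifferentiated cells (hPSC), endoderm (DE), progenitors of the pancreas (PP) and islet-like organoids (hILO), profiled from mRNA with a SYSY antibody (batch 1 in the labels). A separate experiment (batch 2) held wild-type pancreatic progenitors (WT PP) and progenitors in which the m6A demethylase ALKBH5 had been knocked out with CRISPR-Cpf1 (A5-KO PP). It used total RNA, a Millipore antibody, rRNA-depleted input and another library kit. ALKBH5 itself had 4 peaks in WT PP, against 5 for A5-KO PP, which is no check of the knockout, since an edited gene can still be transcribed. Every population had 2 IP and 2 input libraries, 24 in all, but only 1 list of peaks. No spread between replicates could therefore be computed and no test between populations was made. Batch and experiment cannot be told apart between the stages and the knockout experiment, so differences in enrichment and shared peaks were taken only within each experiment, and lists of the 2 experiments are set side by side only by the number of peaks and the genes and bases they cover.

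Clustered protocadherins are cell-surface adhesion proteins that give neurons an identity code, and they are best known from the nervous system. Their genes lie in a row on chromosome 5. Each gene of the PCDHA and PCDHG clusters has its own promoter and its own long variable exon, which encodes the extracellular cadherin repeats, the membrane-spanning part and part of the cytoplasmic tail. That exon is spliced to 3 short-to-long constant exons that all genes of the cluster share. PCDHB genes carry their coding sequence in a single large exon and have no constant exons. A peak on a variable or PCDHB exon can thus be given to 1 gene, whereas a peak on a constant exon belongs to the whole cluster. In the annotation the 53 genes were 13 PCDHA, 16 PCDHB, 12 PCDHGA, 7 PCDHGB and 5 C-type genes, the last group being PCDHAC1, PCDHAC2, PCDHGC3, PCDHGC4 and PCDHGC5 at the ends of their clusters.

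The places that recurred in every list are shown first, because they need no read count to be read. Each line gives up to 30 nt of the GRCh38 reference, 5′ to 3′ on the transcript strand, and capitals mark the letters of DRACH, the sequence context in which the methyltransferase complex places m6A (D stands for any base but C, R for a purine and H for any base but G). The PCDHA4 window lies in a stretch shared by all 6 lists, chr5:140808124-140808173, in the variable exon. The PCDHA12 window is from the stretch chr5:140875304-140875378 at the 5′ end of its variable exon. The PCDHB2 window is from chr5:141095506-141095955 inside its large exon, and the PCDHA constant window is from chr5:141009772-141009971 in the last constant exon.
PCDHA4: tgtagagggcattgataagGGACAgctccc
PCDHA12: atcgactccataaTGACTgtgatgctggaa
PCDHB2: cagaAAACTtgcaGGACAccctcattgctg
PCDHA constant: aaaagaagaagggTAACAAGACCcaggaga

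The windows began at chr5:140808144, chr5:140875333, chr5:141095866 and chr5:141009864. The 450 nt stretch of PCDHB2 held 16 DRACH matches, and GGAC occurred 2 times in it. The 200 nt stretch of the constant exon held 11 DRACH matches and 0 GGAC. The stretch shared by all lists in PCDHGA10, chr5:141415548-141415597, held 0 DRACH matches, which says only that these letters are not in that stretch of 50 nt. A further place shared by all lists was a peak with the same borders each time, chr5:140854574-140854648, on an exon of a long PCDHA9 isoform outside the variable exon. In the stretches common to all lists, 1075 nt in 8 places were covered, of 65695 nt in 212 places covered in any list.

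To see whether the printed sites are shared by related exons, the letters aligned with them were read in the other genes of the family. At the aligned position GGACA of the PCDHA4 window was found in 1 of 13 aligned PCDHA exons, PCDHA4 itself. Elsewhere in the aligned windows, PCDHA6 and PCDHA8 held GGACA and PCDHA11 held GGACT, and some other windows held further DRACH matches. Of these 13 exons, 6 had a peak over the aligned site in at least 1 list, PCDHA4 included. GGACA of the PCDHB2 window was likewise found at the aligned position in 1 of 15 aligned PCDHB exons, and 8 of the 15 had a peak there. The windows aligned with PCDHA4 in PCDHA9 and PCDHA12 and those aligned with PCDHB2 in PCDHB3 and PCDHB8 show how far the letters differ. They lie at chr5:140849452-140849481, chr5:140876429-140876458, chr5:141101719-141101748 and chr5:141179107-141179136.
PCDHA9 aligned: agtcgaggctgtcgataaaggcttcccacc
PCDHA12 aligned: ggttaacgccattgataaagggattccttc
PCDHB3 aligned: ctgaGAACTcgggagAGACTgtactggctg
PCDHB8 aligned: ctgagaatgcgcctgAAACTgtggttgcac

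PCDHA9 had no peak over its aligned window in any list, and PCDHA12 had one in hPSC, PP and A5-KO PP. PCDHB3 had a peak there in WT PP and A5-KO PP, and PCDHB8 had none. The PCDHA9 and PCDHA12 windows each shared 17 of 30 letters with PCDHA4, and the PCDHB3 and PCDHB8 windows shared 18 and 16 letters with PCDHB2.

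Before counts and enrichment could be used, the pairing of coordinates with values had to be examined, because it failed for most rows. Neighbouring peaks of a gene are read from the same RNA, so their input reads per length should go together. Over all neighbouring pairs (peaks of a gene under 300 nt apart) Spearman's rho was only 0.248 to 0.385 in the 6 lists. When the pairs were sorted by the peak number in the files, a stretch of numbers in every list gave a rho of 0.689 to 0.824, and the rest gave 0.19 to 0.283. Moving the values by 1 row within the good stretches lowered rho to 0.178 to 0.209. For most rows outside these stretches read counts, log2 enrichment and p-values therefore stand beside the coordinates of other peaks. A further 3 of 480 bins of 500 peak numbers passed the limit of 0.5 (rho up to 0.837) but were left out because they formed no run of 3, so some rows left out are paired rightly. The good stretches held 35.4% of hPSC peaks, 38.2% of DE, 13.7% of PP, 11% of hILO, 6.31% of WT PP and 5.29% of A5-KO PP peaks. Of the member peaks they held 15 for hPSC and 5 for DE, 0 for PP and hILO, 23 for WT PP and 27 for A5-KO PP, and the gene field named a PCDHB gene for each of them.

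**Figure D1:**
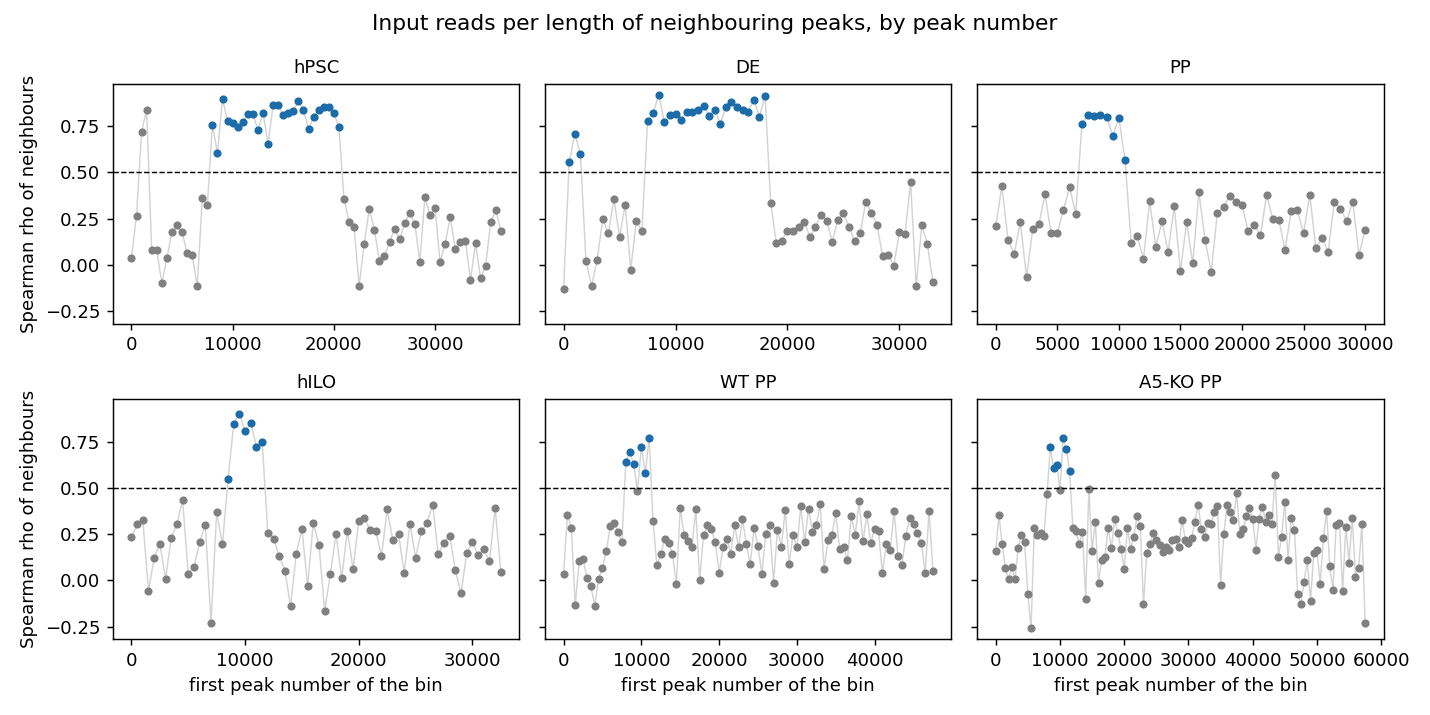
Spearman correlation of input reads per length between neighbouring peaks of the same gene (vertical axis) in bins of 500 peak numbers (horizontal axis), 1 panel per list, with the dashed line at 0.5 and blue points for bins in runs of at least 3 over that line. High correlations form short stretches, from 26 of 74 bins in hPSC to 6 of 116 in A5-KO PP.

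For the hPSC list the values of the PCDHA and PCDHG peaks could be moved back to their rows. Among 237 neighbouring pairs of other genes beside these rows, taking values from the row numbered 3 higher than the rank of the coordinates gave a rho of 0.805, against 0.47 for the best other of 91 offsets and 0.101 as deposited. IP reads, which were not used to choose the offset, gave 0.793. In the PCDHA and PCDHG rows themselves (39 pairs) rho rose from -0.0771 to 0.625, though another offset reached 0.618 there, so the choice rests on the neighbouring genes. Values were recovered in this way for 81 hPSC peaks, and 6 PCDHA peaks were left out because their order was ambiguous. All other member peaks are described by position alone, which does not depend on the pairing. Between 0.136% and 9.51% of peak numbers were absent from a list, and if the peaks behind them were removed by their values, which peaks were removed is uncertain to that extent.

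The number of clustered protocadherin peaks was lower at each later stage of differentiation. The hPSC list held 103 member peaks and the DE list 68, followed by 40 for PP and 31 for hILO, which were 0.281%, 0.208%, 0.138% and 0.0984% of all peaks of their lists. WT PP had 155 member peaks (0.358%), A5-KO PP 161 (0.292%). The stage lists differed far less in total size, with 29083 to 36659 peaks, than in member peaks. Reads inside all peaks of a list numbered 6987612 to 28463998 for input and 30723097 to 79822815 for IP. The lists were thus called at unequal depth, and the part of depth in these counts was not tested.

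Along the stages (hPSC, DE, PP, hILO) 26, 20, 12 and 15 of the 53 genes had an assigned peak. A peak was assigned to the gene whose variable or large exon held most of its bases, or to the only gene with an isoform on the other exon it lay on. The genes were 49.1% (Wilson 95% interval 36.1 to 62.1), 37.7% (25.9 to 51.2), 22.6% (13.5 to 35.5) and 28.3% (18 to 41.6). Of all 20046 protein-coding genes, 60.2%, 57%, 52.2% and 57.7% had a peak in the same lists. All genes were counted from the gene field, in which every PCDHA peak names 15 genes and every PCDHG peak 22, while the members were counted by assigned peaks. By the gene field 46, 43, 38 and 40 of the 53 genes had a peak along the stages, or 86.8%, 81.1%, 71.7% and 75.5%. The members thus lay below the protein-coding genes by assigned peaks and above them by the gene field, and no order between them can be read. On the variable and large exons alone 26, 18, 11 and 14 genes had a peak along the stages, since PCDHA9 in DE, PP and hILO and PCDHAC2 in DE had peaks elsewhere only. In the knockout experiment WT PP had a peak on 40 genes (75.5%, 62.4 to 85.1) and A5-KO PP on 39 (73.6%, 60.4 to 83.6), and the gene field named 52 in both (98.1%), beside 62.8% and 69.7% of protein-coding genes. Intervals cover counting error only, and genes of a cluster are not independent.

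**Figure D2:**
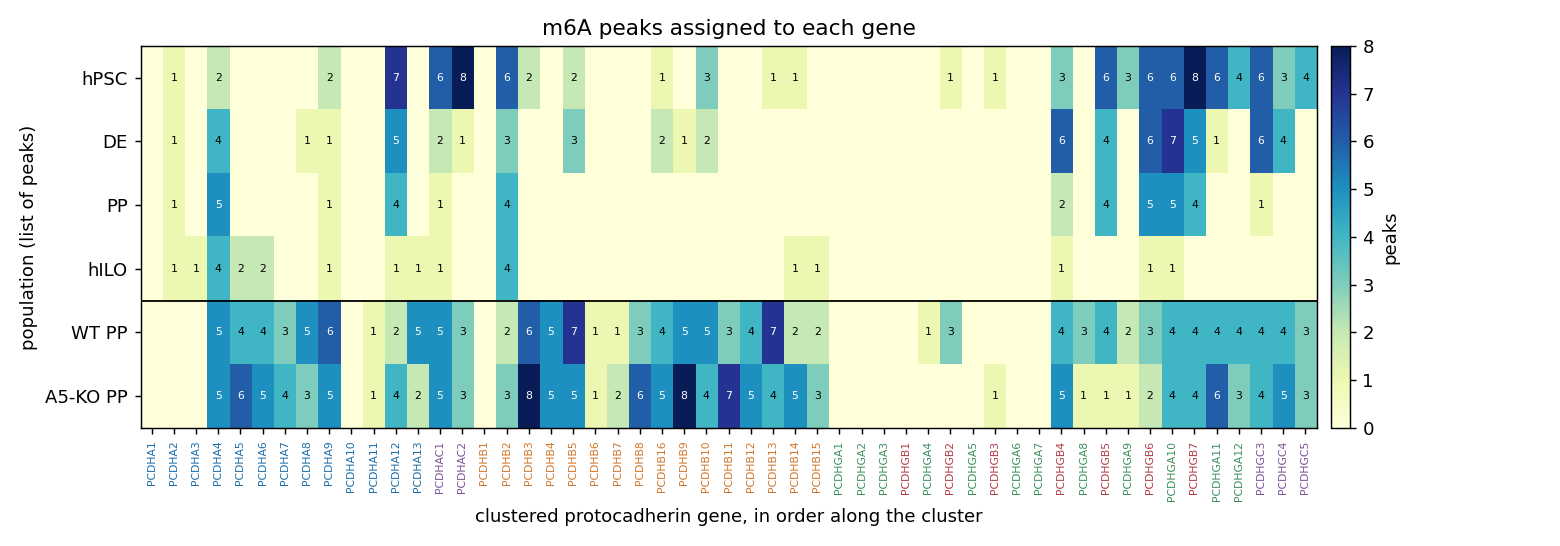
Number of peaks (colour and digits) assigned to each of the 53 genes (horizontal axis, in the order of the chromosome) in the 6 lists (rows), with the stages above and the knockout experiment below the black line. The PCDHB columns are nearly empty in PP and hILO except for PCDHB2, and filled for 15 of 16 genes in WT PP and A5-KO PP.

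PCDHB genes showed the widest range. Along the stages 7, 5, 1 and 3 of the 16 genes had a peak, and 15 of 16 had one in both WT PP and A5-KO PP. PCDHB2 was the gene with peaks in PP, with 4. It had 6, 3, 4 and 4 peaks along the stages, and WT PP had 2 and A5-KO PP 3. The low numbers in the last pair of lists come with longer peaks, since 57.5% of the PCDHB2 exon was covered in WT PP against 37.3% in hPSC. PCDHB5 had 2, 3, 0 and 0 peaks along the stages, while WT PP had 7 and A5-KO PP had 5. PCDHB3 had 2 peaks in hPSC, 0 at the later stages, and 6 and 8 in the knockout experiment (WT PP and A5-KO PP). PCDHB1, whose closest exon of the 53 was only 56.9% identical, had no peak in any list.

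PCDHB peaks were also the members whose presence differed most between the PP of the stage series and WT PP, with 14 PCDHB genes covered in WT PP only and 0 in PP only. Over all 53 genes the numbers were 29 and 1 by assigned peaks. By the gene field, where only PCDHB genes could differ, they were 14 (26.4%) and 0, beside 15.2% and 4.57% of protein-coding genes. The WT PP list was also the larger one. The kit, the antibody and the RNA fraction differed between these lists, and their part cannot be told apart from that of the cells. Markers of neurons (TUBB3, STMN2, MAP2, DCX and ELAVL4) had a peak for 1 of 5 genes in hPSC, DE and hILO, 0 of 5 in PP and 3 of 5 in WT PP and A5-KO PP. Markers of mesenchyme (COL1A1, COL3A1, VIM and DCN) had a peak for 1, 1, 3 and 3 of 4 genes along the stages, while WT PP had 1 of 4 and A5-KO PP 4 of 4. The part of these cells in the PCDHB counts was not tested.

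The C-type genes went from broad to almost no coverage along the stages. Of these 5 genes 5, 4, 2 and 1 had an assigned peak along the stages, or 5, 3, 2 and 1 on the variable exons alone, and all 5 had peaks in WT PP and A5-KO PP. PCDHAC2 had 8, 1, 0 and 0 peaks along the stages, of which the DE peak lay outside its variable exon, and PCDHGC3 had 6, 6, 1 and 0. PCDHAC1 kept a peak in every list, with 6, 2, 1 and 1 along the stages and 5 each in WT PP and A5-KO PP.

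In the PCDHG cluster most peaks sat on the genes at the 3′ end of the row. PCDHGA10 had the largest number of peaks over all lists, 27, with 6, 7, 5 and 1 along the stages and 4 each in WT PP and A5-KO PP. PCDHGB7 had 25 and PCDHGB6 had 23. PCDHGB7 went from 8 peaks in hPSC over 5 in DE and 4 in PP to none in hILO. At the other end of the row, PCDHGA1, PCDHGA2, PCDHGA3, PCDHGB1, PCDHGA5, PCDHGA6 and PCDHGA7 had no assigned peak in any list. PCDHGA4 had 1 peak, in WT PP, which spanned the gap to PCDHGB1 and covered 2.92% of either exon, so it could as well be given to PCDHGB1. PCDHGB2 had 1 peak in hPSC and 3 in WT PP, and PCDHGB3 had 1 each in hPSC and A5-KO PP. Peaks covered 53.9%, 41.5%, 38.6% and 1.9% of the PCDHGA10 variable exon along the stages, against 87.2% (WT PP) and 81.5% (A5-KO PP).

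PCDHA genes did not show the lower numbers of the other groups. Along the stages 4, 5, 4 and 8 of the 13 genes had an assigned peak, or 4, 4, 3 and 7 on the variable exons alone. Between PP and hILO, PCDHA3, PCDHA5, PCDHA6 and PCDHA13 were gained and no PCDHA gene was lost. The hILO peak given to PCDHA13 spans the gap from PCDHA12 and covers 1.54% of the PCDHA13 exon, as did an hPSC peak given to PCDHA12, so this gain rests on the assignment. Over the same step PCDHGB5, PCDHGB7 and PCDHGC3 lost their peaks and PCDHB14 and PCDHB15 gained 1 each. The hILO peak given to PCDHB15 covers 2.44% of that exon and joins it with the PCDHB14 exon, so this gain too rests on the assignment. PCDHA4 had peaks in every list, 2, 4, 5 and 4 along the stages and 5 each in WT PP and A5-KO PP. PCDHA12 had 7, 5, 4 and 1 along the stages. PCDHA9 had 2, 1, 1 and 1 there, against 6 (WT PP) and 5 (A5-KO PP), and its peaks in DE, PP and hILO were the one outside the variable exon. PCDHA1 and PCDHA10 had none. The single PCDHA2 peak of the 4 stage lists joined the end of one exon with the start of the next, as described below.

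**Figure D3:**
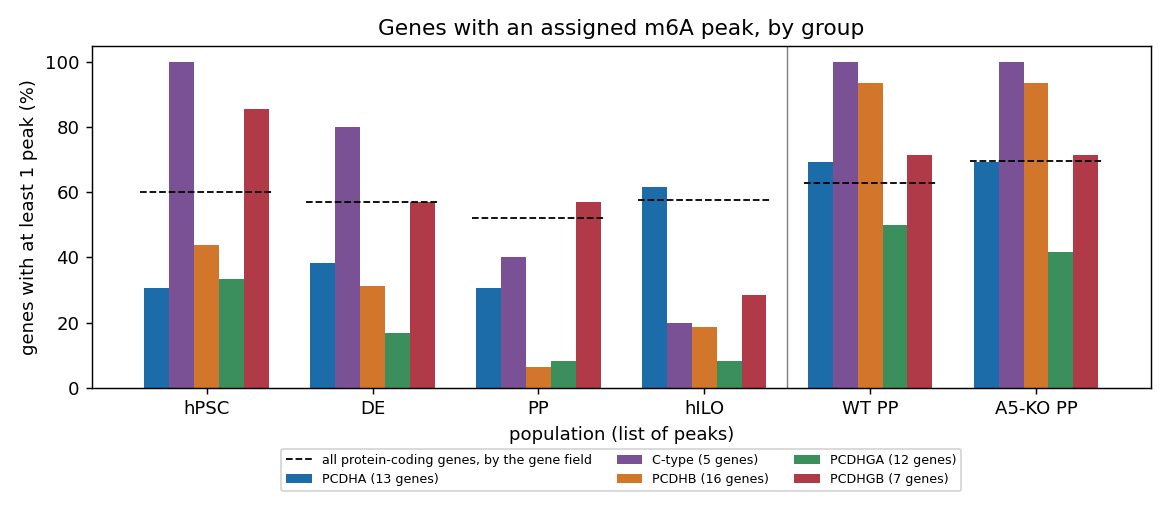
Share of genes with at least 1 assigned peak (bars, in percent) by group of clustered protocadherins in the 6 lists, with the share of all protein-coding genes named in the gene field of a peak as dashed lines, a wider count than that of the bars. C-type genes fall from 5 of 5 in hPSC to 1 of 5 in hILO, PCDHB genes from 7 to 3 of 16, and PCDHA genes stand at 4 of 13 in hPSC and 8 of 13 in hILO.

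In all 6 lists 8 genes had an assigned peak, namely PCDHA4, PCDHA9, PCDHA12, PCDHAC1, PCDHB2, PCDHGB4, PCDHGB6 and PCDHGA10. On the variable and large exons alone there were 7, without PCDHA9. A further 10 genes had no assigned peak in any list, and 35 had a peak in 1 to 5 lists. From hPSC to DE 8 genes (15.1%) lost and 2 (3.77%) gained an assigned peak. From DE to PP 8 (15.1%) lost and 0 gained one, and from PP to hILO 3 (5.66%) lost and 6 (11.3%) gained one. By the gene field the losses and gains were 4 and 1 genes (7.55% and 1.89%) from hPSC to DE, beside 8.37% and 5.18% of protein-coding genes. They were 5 and 0 (9.43% and 0%) from DE to PP, beside 10.9% and 6.1%, and 0 and 2 (0% and 3.77%) from PP to hILO, beside 5.27% and 10.8%. Every list held PCDHA and PCDHG peaks, each naming its whole cluster, so only PCDHB genes could be lost or gained by this count. These shares therefore cannot rank the members against all genes. From WT PP to A5-KO PP 38 genes kept a peak, 2 lost it (PCDHGA4 and PCDHGB2) and 1 gained it (PCDHGB3). By the gene field, where again only PCDHB genes could differ, 0 were lost and 0 gained, beside 5.09% and 12% of protein-coding genes. This count cannot show that the members were more stable than other genes. The median number of peaks per gene with a peak was 3, 3, 4 and 1 along the stages and 4 in both WT PP and A5-KO PP, beside 2 in each stage list and 3 in the others over other protein-coding genes.

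Protocadherins outside the clusters are the nearest comparison. Of 11 such genes (PCDH1, PCDH7 to PCDH10, PCDH12, PCDH15 and PCDH17 to PCDH20) 9, 7, 7 and 9 had a peak along the stages and 9 in each of WT PP and A5-KO PP. Their peaks numbered 44, 36, 28 and 33 along the stages (53 for WT PP and 67 for A5-KO PP), so they too were fewer in the later stages than in hPSC. The difference from the clustered genes was not tested. Of 9 genes of promoter choice and silencing in these clusters (the insulator factor CTCF, the cohesin subunits RAD21, SMC1A and SMC3, their loaders and releasers NIPBL and WAPL, and SMCHD1, SETDB1 and DNMT3B) 8 or 9 had a peak in every list. Of the markers of the stages, those of DE had peaks for 1 of 4 genes in hPSC, 4 in DE, WT PP and A5-KO PP and 3 in PP and hILO. PP markers had peaks for 2 of 5 genes in hPSC, 1 in DE and 5 in the other lists. hILO markers had peaks for 5 of 5 genes in hILO and for 1 or 2 elsewhere. Pluripotency markers had peaks for 3 of 4 genes in hPSC and DE and 1 of 4 in PP and hILO, and for 0 in the knockout experiment.

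Variable exons held most peaks of the clusters that have them. Together they also hold far more bases than the constant exons, and the shares of peaks were not set against exon length. Among PCDHA and PCDHG peaks, 92% of the hPSC peaks (80 of 87), 87.7% of the DE peaks and 86.1% of the PP peaks lay mostly on a variable exon, as did 86.5% of those of WT PP and 86.7% of those of A5-KO PP. In hILO the share was 60% (15 of 25, 40.7 to 76.6). The constant exons made up 3.45% of PCDHA and PCDHG peaks in hPSC, with 3 peaks, and 20% in hILO, with 5 of 25 (8.86 to 39.1). Over all member peaks, PCDHB included, the share on variable exons was 77.7%, 73.5%, 77.5%, 48.4%, 53.5% and 48.4% in the order hPSC, DE, PP, hILO, WT PP and A5-KO PP.

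The constant exons differed between the clusters. The last constant exon of PCDHA, chr5:141009627-141012347 with 2721 nt and shared by 15 genes, had a peak near its start in every list, within chr5:141009647-141010146. A second peak on this exon, around chr5:141010447-141010571, was called in hPSC, hILO, WT PP and A5-KO PP. The last constant exon of PCDHG, chr5:141510947-141512975 with 2029 nt and shared by 22 genes, had 1 peak each in hPSC, DE and PP and 3 in hILO, but none in WT PP or A5-KO PP. Its hPSC peak at chr5:141511471-141511570 overlapped the hILO peak at chr5:141511446-141511620. The DE, PP and hILO peaks near chr5:141512921 lay at the 3′ end of the exon instead.

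Some peaks spanned a gap between exons, 5, 4, 2 and 6 along the stages, 13 for WT PP and 12 for A5-KO PP. A further 1 in DE, 1 in PP, 3 for WT PP and 4 for A5-KO PP ran past the end of an exon or lay outside the annotated exons. Because the genes of a cluster overlap, such peaks can join the end of one variable exon with the start of the next. The span chr5:140871508-140979755 was identical in hPSC, DE, PP and hILO, with 175 nt of exon. Both kinds were kept in the counts but left out of the sequence analysis and of values along exons.

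Peaks were found in every part of the exons, evenly in hPSC and less so elsewhere. When each variable or PCDHB exon was cut into 5 equal parts, 18.3% to 21.5% of the 93 hPSC peak centres fell in each part. In PP part 4 held 2 of 34 centres (5.88%) and in hILO 1 of 18 (5.56%). In A5-KO PP part 3 held 27.3% of 139 centres and part 5, at the 3′ end, 11.5%. The covered share of bases was highest in part 2 in every list. It was 28.1%, 30%, 34.5% and 23.5% there along the stages, while WT PP reached 42.2% and A5-KO PP 45.7%. Part 5 was covered to 19%, 17.6%, 31.5% and 7.46% along the stages, to 23.8% in WT PP and to 16.5% in A5-KO PP.

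DRACH matches were denser inside the peaks than in the rest of the same exons. In hPSC there were 23.6 matches per kb in peaks and 17.9 outside, a ratio of 1.32 (95% counting interval 1.17 to 1.48). DE gave a ratio of 1.34 (1.16 to 1.55), PP gave 1.25 (1.03 to 1.51) and hILO gave 1.41 (1.11 to 1.8). WT PP and A5-KO PP gave 1.2 (1.11 to 1.31) and 1.28 (1.18 to 1.4). For the antisense letters of the same exons the ratio ranged from 0.935 to 0.98 and each interval included 1. GGAC, a frequent form of DRACH sites, gave ratios of 1.17 to 1.67 on the transcript strand. Its ratio on the opposite strand was 1.58 (1.19 to 2.08) in hPSC and 1.27 (1.03 to 1.57) in WT PP, so the excess of GGAC was not limited to the transcript strand in these lists.

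Most exon stretches of peak length hold DRACH anyway. In hPSC 95.7% of 93 peaks held a DRACH match, beside 86.6% of windows of the same lengths tiled over the same exons, and 71% held GGAC beside 60.1% of windows. In A5-KO PP 80.6% of 139 peaks held GGAC beside 67.9% of windows. In PP the shares were 85.3% and 86.3% for DRACH and 61.8% and 61.9% for GGAC, so PP peaks did not hold a match more often than other windows. These matches are a description of the letters and not of sites of methylation.

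Nearly identical exons limit how surely a peak belongs to a gene. Within the PCDHA group the variable exons were 76.3% to 89.3% identical (median 77.8% of 78 pairs), and PCDHA6 and PCDHA8 were the closest pair. PCDHB exons were 51% to 93.5% identical, with PCDHB8 and PCDHB13 as the closest pair. PCDHGA exons reached 79.8%, PCDHGB exons 85.4% (PCDHGB4 and PCDHGB5) and C-type exons 56.4%. Of all 100 nt windows, about the fragment length, 5.78% occurred letter for letter in another exon of the 53. This share was 25.6% in PCDHB8, 24.7% in PCDHB10, 21.4% in PCDHA7, 21.1% in PCDHA9, 15.9% in PCDHGB5, 15.8% in PCDHGB4 and 15.1% in PCDHB13, and 0 in PCDHA4, PCDHAC1, PCDHAC2, PCDHGC3, PCDHGC4 and PCDHGC5. As the authors kept 1 alignment per read, counts of the first 7 genes, and to a lesser degree of the others with shared windows, are uncertain there, and their peaks may belong in part to the paralog.

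Read counts in hPSC could be followed along 24 exons. Input reads are given per kb of peak length plus 100 nt, and log2 enrichment of IP over input is as the authors computed it. Over 89 peaks on variable or PCDHB exons the median was 116 input reads per kb and a log2 enrichment of 1.90. Input varied little along some exons and more along others. The 6 PCDHGA10 peaks lay between 165 and 237 reads per kb, the 6 PCDHGC3 peaks between 209 and 354, the 8 PCDHGB7 peaks between 127 and 287 and the 7 PCDHAC2 peaks between 127 and 322. The 6 PCDHB2 peaks had 172 to 254 reads per kb. At the low end, 3 peaks of PCDHGB4 had 21.8 to 65.7, 3 of PCDHGA9 had 25 to 46.7 and 3 of PCDHB10 had 15 to 40. Wider ranges were found in PCDHGB5, with 80 to 333 over 5 peaks, in PCDHGC5, with 14.5 to 160 over 4, and in PCDHAC1, with 36.4 to 116 over 6. By their medians, 6 exons had 172 to 248 reads per kb (PCDHA12, PCDHAC2, PCDHB2, PCDHGA10, PCDHGB7 and PCDHGC3), 5 had 60 to 102 (PCDHAC1, PCDHGB5, PCDHGB6, PCDHGA11 and PCDHGC4) and 11 had 13.3 to 53.3.

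The constant exons stood above the variable exons. The PCDHA constant exon had 431 and 667 input reads per kb in its 2 peaks, and the PCDHG constant exon had 1200. Only 1 of the 89 peaks on variable or PCDHB exons was above 431. Their log2 enrichment was 1.22 to 1.71, below the median of the variable exons. The genes of a cluster share the constant exons, so reads there can come from any of these genes. The part of this sharing in the higher input was not tested.

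**Figure D4:**
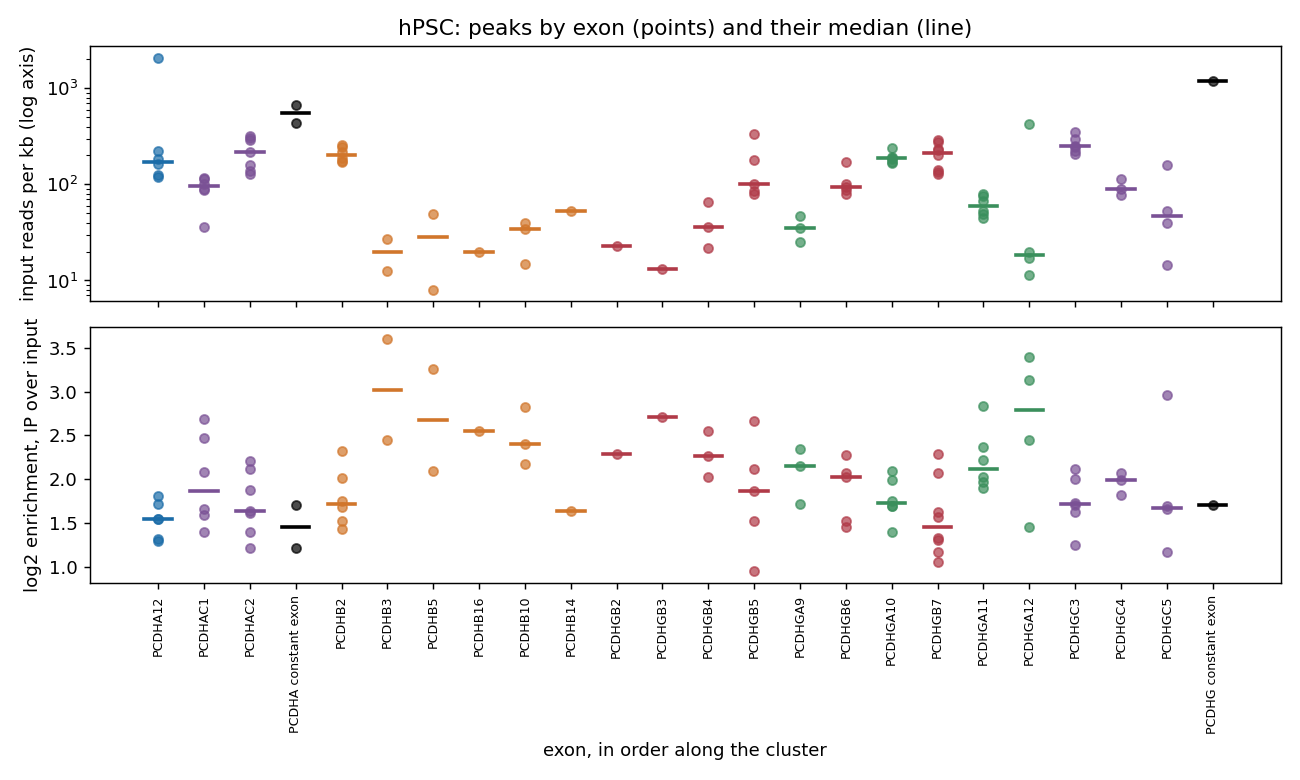
Input reads per kb (upper panel, log axis) and log2 enrichment of IP over input (lower panel) of hPSC peaks by exon, where points are peaks, lines are medians and colours mark the groups of genes, with constant exons in black. PCDHGA10, PCDHGB7, PCDHGC3, PCDHAC2 and PCDHB2 have medians of 186 to 248 reads per kb, the constant exons at 431 to 1200, and exons with few reads have higher log2 values.

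The widest ranges along an exon were those of PCDHA12 and PCDHGA12. The PCDHA12 peak at the 5′ end of the exon, chr5:140875304-140875603, had 2090 input reads per kb while the other 5 peaks of that exon had 120 to 220. The 5′ PCDHGA12 peak, chr5:141430563-141430662, had 425 reads per kb beside 11.4 to 20 in the other 3. Both are the first peaks of their exon, as is the PCDHGC5 peak with 160 reads per kb. The PCDHA12 peak also directly followed the rows whose order was ambiguous. Without it the other values of the exon stand as given.

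Enrichment was highest where input was low. Across the 89 peaks Spearman's rho between input reads per kb and log2 enrichment was -0.666, as a description. Input is the denominator of the enrichment and peaks were called on IP over input, so a negative relation is partly built in. Of these peaks 32 had fewer than 20 input reads. PCDHB3 had log2 values of 3.61 and 2.44 with 6 and 8 input reads (counting SE 0.57 and 0.51). PCDHGA12 reached 3.40 with 2 input reads (SE 0.92). Well-covered peaks ranged less, from 1.43 to 2.32 in PCDHB2, from 1.39 to 2.09 in PCDHGA10 and from 1.24 to 2.12 in PCDHGC3. Along PCDHGB7 the 3 peaks with most input reads (145, 83 and 54) had 2.08, 1.62 and 2.29, with counting SEs of 0.12, 0.17 and 0.20. The median over all 96 hPSC values was 1.87 (interval 1.70 to 2.03), beside 1.74 over all hPSC peaks.

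In DE only 5 peaks had usable values. The 900 nt PCDHB2 peak at chr5:141095406-141096305 had 318 input reads, 318 per kb, and a log2 enrichment of 1.31. The hPSC peak it overlapped most had 118 input reads and 2.32, a difference of -1.01 with a counting SE of 0.17 on the log2 ratio of counts. On the centred ratio of counts the difference was -0.88, under the limit of 1, beside 1.53% of all shared peaks higher and 1.8% lower on that scale. The DE peak also covered the hPSC peak chr5:141096056-141096305, which had 89 input reads and 1.52, a difference of -0.21 (SE 0.19). The difference thus depended on the hPSC peak taken. The PCDHB10 peaks of DE overlapped hPSC peaks with 3 and 8 input reads, at differences of -0.68 (SE 0.91) and -0.16 (SE 0.59), which are within the counting error. Among 7176 shared peaks of all genes with usable values, 1.8% were lower by 1 or more in DE and 1.1% were higher. PCDHB10 had 2.14 and 2.01, and PCDHB16 had 1.80 and 1.65, each with 10 to 27 input reads.

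The share of member peaks found again in the preceding stage was near that of all peaks. A peak counted as found again if over 50% of its exonic bases lay in peaks of the other list. In DE, 66.2% of 68 member peaks (54.3 to 76.3) were found in hPSC, beside 63.6% of all DE peaks. In PP, 65% of 40 (49.5 to 77.9) were found in DE, beside 55.8%, and in hILO 41.9% of 31 (26.4 to 59.2) were found in PP, beside 44.4%. Read forward, the member shares were lower. Of the hPSC peaks 38.8% (30 to 48.5) were found in DE, beside 51.4% of all hPSC peaks, a value above the interval. Of the DE peaks 35.3% (25 to 47.2) were found in PP, beside 45.6%, which lay inside the interval. Of the 40 PP peaks 25% (14.2 to 40.2) were found in hILO, beside 57.8% of all PP peaks, and this interval lay entirely below the value of all peaks.

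Members were found again between WT PP and A5-KO PP in larger shares than all peaks. Of 161 A5-KO PP member peaks 65.2% (57.6 to 72.1) were found in WT PP, beside 45.9% of all peaks. Of the WT PP member peaks 57.5% (49.6 to 65.1) were found in A5-KO PP, beside 48.8%. With over 50% required in both directions the member shares were 42.9% and 45.1%, beside 30.6% and 39% of all peaks, and the interval of the second (37.4 to 53) included the value of all peaks. WT PP had 57 peaks assigned to PCDHB genes and A5-KO PP had 71, the PCDHGB peaks numbered 18 and 13, and PCDHA had 35 in both. PCDHGB5 went from 4 peaks to 1 and PCDHGA8 from 3 to 1, while PCDHB11 went from 3 to 7. With 1 list each these numbers have no replicate check. The list of A5-KO PP was also larger as a whole, with 55219 peaks against 43312.

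Usable values in both lists existed for 17 pairs of shared PCDHB peaks. The WT PP peaks chr5:141101623-141102297 and chr5:141136481-141136980 each entered with more than 1 A5-KO PP peak, so the pairs are not all separate. Input per length of the pairs went together between the lists, with Spearman's rho of 0.825 over 16 pairs without the span over PCDHB15. Of these 16 pairs 3 had no input reads in either list. In 5 of the 17 the log2 enrichment was higher by 1 or more in A5-KO PP and in 4 it was lower, beside 16.4% higher and 17.7% lower among 1629 shared peaks of all genes. These include 3 pairs with 0 input reads in both lists, and without such pairs 4 of 14 were higher and 2 lower, beside 16.1% and 17.5% of 1591. The median difference of the 17 was -0.14. On the log2 ratio of counts, centred in each list on the median of all its peaks, 1 of the 17 was higher and 6 were lower, beside 10.7% higher and 27.6% lower among all 1629. On that scale the member median was -0.92, and the median over all 1629 shared peaks was itself -0.55, beside -0.03 on the authors' scale. Of the 5 member pairs whose input reached 50 reads in each of the lists 3 differed by 1 or more, beside 17.5% of 1099 such pairs of all genes. In the 3 pairs without input reads the log2 values ranged from 0.68 to 10.21 with no input to set them against, so their differences carry no information on methylation.

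PCDHB2 was the best-covered of these genes. Its main peak had 1074 input and 13270 IP reads in WT PP, at a log2 enrichment of 5.72, and 1542 input and 9752 IP reads in A5-KO PP, at 5.23. The difference was -0.50, with a counting SE of 0.06. The 3′ peak went from 4.94 with 385 input reads to 3.44 with 278, a difference of -1.50 (SE 0.12), but the peaks started at the same base and spanned 650 nt in WT PP and 300 nt in A5-KO PP, so unequal stretches are compared. On the centred ratio of counts the differences were -1.37 and -0.93. Both values of PCDHB2 were lower in A5-KO PP by more than the counting error, and the spread between cultures is unknown.

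PCDHB3 held 6 shared pairs. The 5′ peak went from 3.77 with 149 input reads to 4.84 with 92 (difference 1.06, SE 0.21), and on the centred ratio of counts the difference was 0.07. The 3′ peak at chr5:141102923-141103097 had 3.80 (WT PP) and 3.72 (A5-KO PP), a difference of -0.08, or -0.92 on the centred ratio. The middle of the exon had few input reads and high values, 7.12 with 23 input reads and 7.30 with 24, and its difference turned from 0.18 to -1.03 on the centred ratio. Directly 3′ of it, the A5-KO PP list had a separate peak of 3.02 with 48 input reads, which fell inside the WT PP peak of 7.12. The difference of -4.10 between them compares peaks of unequal extent.

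PCDHB14 was higher in A5-KO PP at both of its shared places, from 5.08 to 6.68 and from 5.33 to 7.65. These rest on 11 to 32 input reads, and on the centred ratio of counts the differences were 0.31 and 2.07. The span assigned to PCDHB15, chr5:141227682-141245491, went from 1.96 to 4.49 with 108 and 117 input reads (SE 0.24), a difference of 2.52 that was 0.75 on the centred ratio of counts. It joins exons across a gap and cannot be given to 1 exon. PCDHB5 differed by 0.19, -0.43 and -0.73 at the shared places with input reads in both lists, and by -0.62, -0.93 and -0.02 on the centred ratio.

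**Figure D5:**
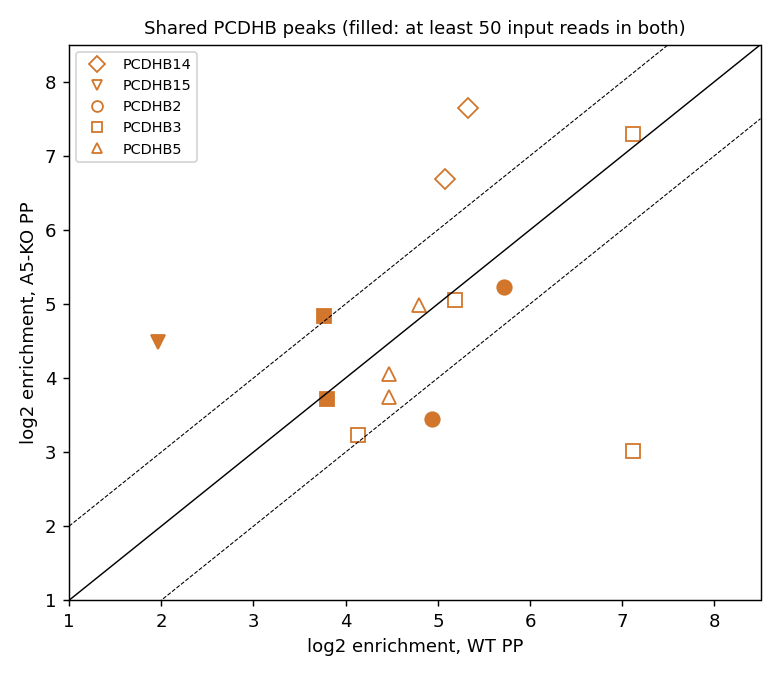
Log2 enrichment of 14 pairs of shared PCDHB peaks in WT PP (horizontal axis) and A5-KO PP (vertical axis), filled where both lists had at least 50 input reads, with the line of equal values and dashed lines 1 above and below it. The 3 pairs with 0 input reads in both lists are left out, both PCDHB2 peaks lie below and both PCDHB14 peaks above the line of equal values.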

How the data were processed

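The members and lists were chosen with earlier results of these data known. Per the labels and the study's methods, reads were trimmed (fastp) and mapped by the authors to GRCh38 (HISAT2, at most 1 placement per read), and exomePeak2 called peaks from all libraries of a population jointly. The deposited lists give, per peak, pooled counts of IP and of input reads, a log2 enrichment and p-values. Whether counts are sums or means was not given in the sources used here, and 0 columns of values per library were left unused. The deposited p-values were not used, because they stand beside the wrong coordinates for most peaks.

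Spans were reduced to GENCODE 44 exons on GRCh38, and coordinates are 1-based. A peak was assigned to the exon that held most of its bases, and on exons outside the variable, PCDHB and constant exons to a gene where 1 gene alone had an isoform there. Shared peaks and enrichment were compared within a batch, PP and WT PP only by the genes with peaks, and no count model was fitted, since no values per library were used. Peaks of a gene under 300 nt apart and under 1000 nt long were neighbours. Deposited values were used in runs of at least 3 bins of 500 peak numbers with a Spearman's rho of at least 0.5, and the offset for hPSC was chosen on 200 rows before and 1000 rows after the PCDHA and PCDHG rows. These rules were chosen after seeing the data and were checked on simulated lists. Counting errors took 0.5 added to each count, ratios of counts a pseudocount of 1, and medians an order-statistic 95% interval. Exons were aligned with MAFFT 7.526, and pairs aligned over at least 1000 bases were compared. scipy 1.17.1 and statsmodels 0.14.6 (Wilson intervals) were used in Python 3.11.15. Depth is known only as reads inside peaks, PCR copies are not independent molecules, and intervals cover counting error only. The planned naming rule (genes by input reads in peaks) could not be applied, so the 3 genes per group with most peaks, the members in every list and in none, constant exons, and the shared peaks whose input reached 50 reads in each list were named. Protein identity was not analysed here. Other members were named after their values were seen.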

Additional observations from a re-analysis of the deposited data

How the results depend on the processing

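No paired analysis was possible because each population has 1 pooled list and no values per library, and for the same reason no replicate could be left out. Stricter enrichment (IP/input of at least 2) and p (below 1e-10) limits on the number of peaks were not run, since these values are not tied to the coordinates. Numbers of peaks and genes were held to within 1.5 times the reported value, and all other results to the interval or range of that value. Of 62 alternatives 47 stayed within these limits, 15 moved and 0 reversed. Of the 47, 4 took values as deposited for every member peak, which stand mostly beside other coordinates and say nothing about stability. Choosing members by exon overlap gave 153 peaks in WT PP, 2 fewer, and the same numbers elsewhere. Counting genes only by peaks on their variable or large exon, an alternative chosen after seeing the data, gave 18, 11 and 14 genes for DE, PP and hILO, against 20, 12 and 15, and the same numbers for the other lists. Genes named in the gene field, also chosen later, numbered 46, 43, 38 and 40 along the stages, since each PCDHA or PCDHG peak names its whole cluster. Among found-again shares, any overlap gave 76.5% for DE in hPSC, 73.9% for A5-KO PP in WT PP and 71.9% for WT PP in A5-KO PP. More than 50% in both directions gave 52.9% for DE in hPSC, 45% for PP in DE, 42.9% for A5-KO PP in WT PP and 45.1% for WT PP in A5-KO PP. Both changes follow from the rules' construction. With GGAC in place of DRACH the ratio was 1.67 in hPSC and 1.4 in WT PP. With the ratio of counts, centred on all peaks, the median log2 enrichment of the 5 DE peaks was 2.20 and the median difference between A5-KO PP and WT PP was -0.92, and the cause was not tested.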
